A study of Homo sapiens with 6 samples.

Results

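The nuclear-encoded subunits of the respiratory chain were examined in SW780 cells exposed to RC48. SW780 is an established line from a human bladder tumour, and the study takes it as a model of the luminal type. Members were chosen by gene symbol alone, as the genes whose names begin with NDUFA, NDUFB, NDUFC, NDUFS, NDUFV, UQCR, COX4I, COX5, COX6, COX7 or COX8, together with SDHA, SDHB, SDHC, SDHD and CYC1, without the assembly factors whose names begin with NDUFAF. This gave 67 of the 16390 genes listed in each library, of which 38 belong to complex I, 4 to complex II, 10 to complex III and 15 to complex IV. NDUFA4 and its paralog NDUFA4L2 were counted with complex IV, where the NDUFA4 protein is now placed. The symbols also took in NDUFC2-KCTD14, a readthrough transcript, UQCRHL, a copy of UQCRH, and COX7A2L, a factor of respiratory supercomplexes that is named after COX7A2.

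RC48 (disitamab vedotin) is an antibody against ERBB2 that delivers a microtubule inhibitor, monomethyl auristatin E, into cells. The RC48 group is 3 libraries from cells given 25 µg/ml, and the Control group is 3 libraries from cells without the drug. All libraries came from this 1 cell line, the duration of exposure is not given in the sources used here, and nothing says that replicates were separate cultures, so p-values measure only the spread between these libraries. Expression was read as RNA of whole cultures, in which a change in RNA per cell cannot be told apart from a change in which cells were present.

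The respiratory chain passes electrons from NADH and succinate to oxygen across the inner mitochondrial membrane. Complex I takes electrons from NADH, complex II takes them from succinate as part of the tricarboxylic acid (TCA) cycle, complex III hands them from ubiquinol to cytochrome c, and complex IV reduces oxygen. Complexes I, III and IV pump protons, and the gradient drives ATP synthase (complex V). The subunits studied here are made from nuclear genes and imported, and they join a smaller set of core subunits that the mitochondrial genome encodes, which were not analysed here.

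The estimated counts per library (RSEM's division of reads over genes) summed to between 16453233 and 17988029.9. For pairs of RC48 libraries the chi-square per degree of freedom over genes ran from 22 to 133, and for pairs of Control libraries from 1.48 to 11.6, where 1 is sampling noise, so every pair differed by more than that noise. Across genes, the log2 ratio to the mean of Control went with the GC content of the transcripts at a Spearman's rho of 0.743 in RC48 replicate 1, −0.014 in replicate 2 and 0.572 in replicate 3, over 12981 genes that share these libraries. With the effective transcript length implied by counts and TPM (values scaled to library size and transcript length), rho was −0.29, 0.021 and −0.29. The Control libraries, which form that mean, had trends as well. In Control replicates 1 to 3, rho was 0.13, 0.21 and −0.22 with GC content and −0.42, −0.54 and 0.62 with length. Among the RC48 libraries, replicate 2 differed from replicates 1 and 3 in these trends. By the chi-square, RC48 replicate 1 stood apart, at 133 and 61.2 against replicates 2 and 3, which were at 22 to each other. Results are given with and without single libraries. All 8 luminal urothelial markers of the list passed the filter, and their summed level, in CPM (counts scaled to library size, with TMM factors), was 4233 to 4803 CPM in Control and 4344 to 4909 CPM in RC48, most of it KRT8 and KRT18. Of these markers, KRT20 was called lower, beside 0.23% of all genes tested, with a log2 fold change of −1.55 (adjusted p = 0.0489 in edgeR). It had 1.98 ± 0.0439 CPM in the Control and 0.667 ± 0.29 CPM in the RC48 libraries (SD, n = 3 per group). An unadjusted p under 0.05 in edgeR was found for 3 of 8, beside 19.1% of all genes tested. These were KRT20, FOXA1 and EPCAM, the last 2 at −0.44 and −0.49 in log2 fold change. The log2 fold change was negative for 4 of 8 and positive for 4, which were UPK2 (0.49), ERBB2 (0.16), KRT8 (0.12) and GATA3 (0.10). The sums were 333 to 352 CPM in Control and 309.8 to 343 CPM in RC48 for 4 basal markers, nearly all of it CD44, and 17.3 to 18.1 CPM in Control and 18.6 to 36.4 CPM in RC48 for 4 leukocyte markers, nearly all of it CD68, with PTPRC at 0 in every Control library. They were 272 to 309 CPM in Control and 377 to 464 CPM in RC48 for 2 fibroblast markers, nearly all of it COL3A1, and 26.1 to 28.5 CPM in Control and 17.2 to 22.4 CPM in RC48 for 2 endothelial markers. Among the basal markers, the log2 fold change was 0.68 for KRT14, 0.45 for KRT5, −0.18 for KRT6A and −0.084 for CD44, and none was called. The part of such markers in the results was not tested.

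No respiratory chain subunit passed the test between RC48 and Control. Of the 66 members with enough counts, 0 came out higher and 0 lower by the quasi-likelihood test of edgeR, which calls a gene at an adjusted p under 0.05 (Benjamini-Hochberg, 13055 genes). Over all genes tested, 1.98% were called higher and 0.23% lower, 2.21% in all. At an unadjusted p-value under 0.05, there was 1 member, against 19.1% of all genes. This was NDUFB8, an accessory subunit of complex I that is named here after its value was seen. It had 102, 117 and 91.5 CPM in Control replicates 1 to 3 and 168, 112 and 131 CPM in RC48 replicates 1 to 3, with a log2 fold change of 0.41 (95% interval 0.0036 to 0.82, adjusted p = 0.258 in edgeR). RC48 replicates 1 and 3 lay above every Control library, and replicate 2 lay among the Control libraries. DESeq2 also called 0 members, beside 5.7% of all genes.

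The intervals show what these libraries could resolve. The distance from a member's log2 fold change to the end of its 95% interval had a median of 0.464 and ran from 0.245 to 1.07, beside a median of 0.426 over all genes tested. For 18 members the interval reached past a log2 fold change of 1 in one direction, so the missing calls do not show that the levels were equal. UQCRHL was the member left out of the test for low counts, with 6.03, 2.02 and 1 estimated counts in the Control replicates and 5.16, 1.01 and 0 in the RC48 replicates.

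**Figure D1:**
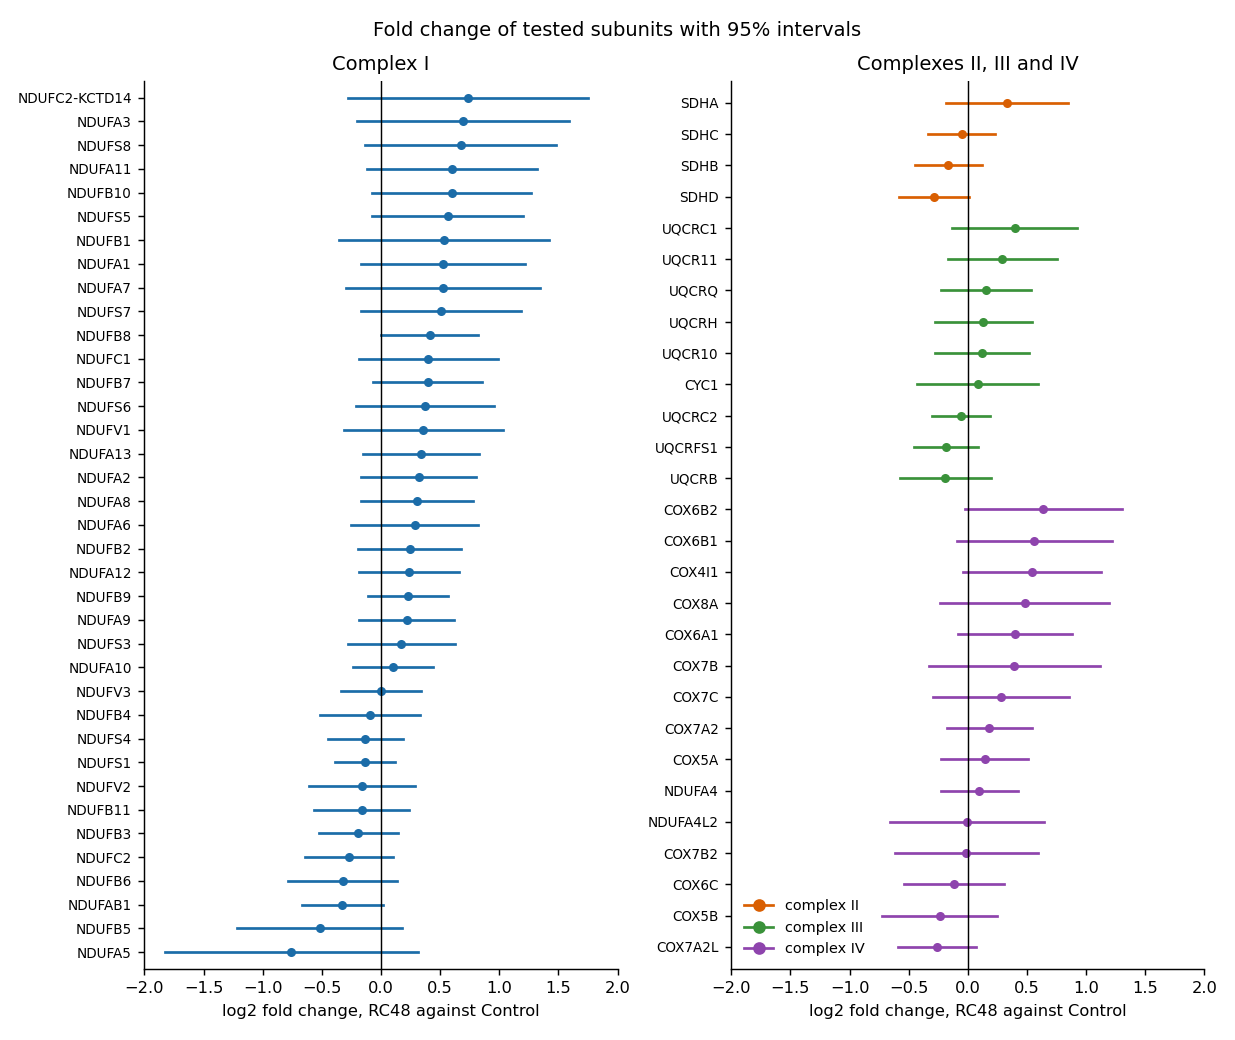
Log2 fold change of RC48 against Control (x axis) for the tested subunits reported here (y axis), with points for the estimate, lines for the 95% interval from edgeR's quasi-likelihood fit and colours for the complexes. Estimates run from −0.76 for NDUFA5 to 0.74 for NDUFC2-KCTD14, and every interval drawn but that of NDUFB8 takes in 0.

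Fold changes leaned upward in complexes I, III and IV, and downward in complex II, without reaching the threshold. The log2 fold change was positive for 44 of 66 members (66.7%) beside 51.4% of all genes tested, with a median of 0.22 beside 0.016. By complex, the median was 0.28 in complex I (27 of 38 positive), −0.11 in complex II (1 of 4), 0.12 in complex III (6 of 9) and 0.18 in complex IV (10 of 15). The upward lean varied with the library and the scale. Above the Control mean lay 45, 10 and 50 of the 66 members in RC48 replicates 1, 2 and 3. The median over all members was 0.017 without RC48 replicate 1. It was −0.037 after a correction for effective transcript length and −0.031 on log2(TPM+1) of 6 libraries, so that the sign turned in these fits. Over all genes tested, the median lay between −0.092 and 0.039 in the fits with another scale, correction or filter.

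Library by library, the members' median log2 ratio to the Control mean was 0.53 in RC48 replicate 1, −0.10 in replicate 2 and 0.15 in replicate 3. The Control replicates themselves lay at 0.055, 0.10 and −0.16. RC48 replicate 2 was thus inside the range of the Control libraries and replicate 3 just above it. In replicate 1, 43 of 66 members lay above every Control library and 19 below every one. In replicate 3 the numbers were 37 and 8, and in replicate 2 they were 2 and 22. These counts were not made over all genes, so they cannot be read as particular to the members. In replicate 1, 47% of members lay over 1.5-fold above the Control mean and 9.09% as far below it, beside 22.6% and 23.5% of all genes. In replicate 2 these shares were 1.52% and 0%, beside 4.63% and 1.78%. In replicate 3 they were 3.03% and 1.52%, beside 5.63% and 6.07%. All RC48 libraries lay above all Control libraries for 0 members, beside 17.4% of all genes, and below them for 4 members, beside 14.1%. These were NDUFAB1, SDHD, UQCRFS1 and COX7A2L.

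**Figure D2:**
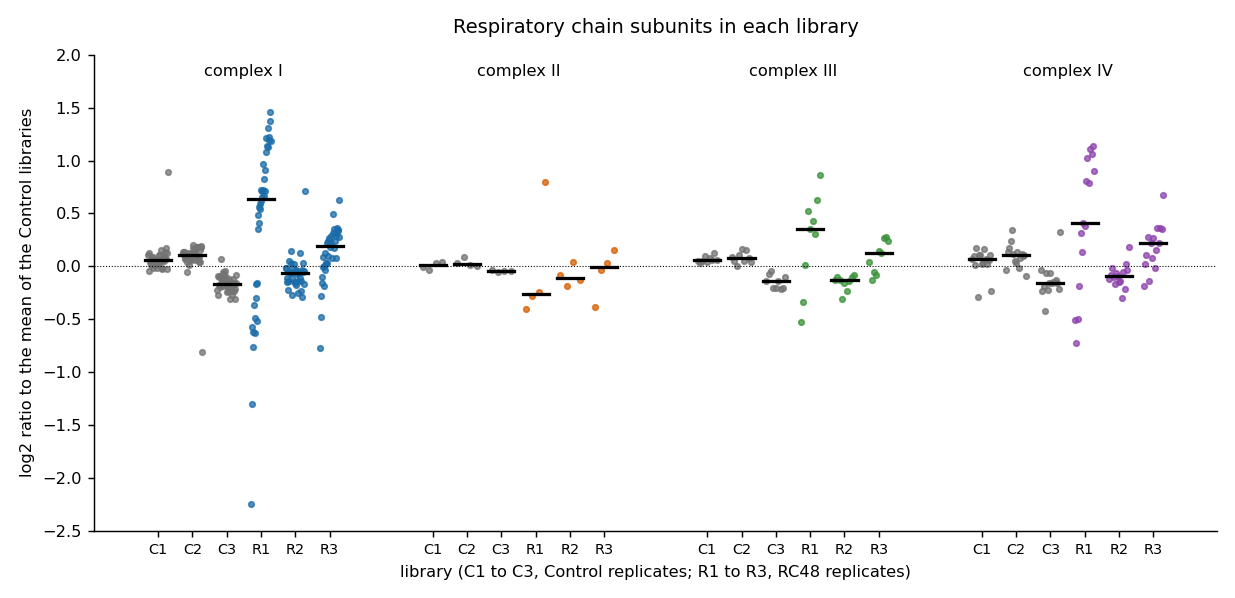
Log2 ratio of each tested subunit to the mean of the Control libraries (y axis) in each library (x axis), by complex, with points for genes and bars for the median. In complex I, RC48 replicate 1 spreads from −2.25 to 1.46 around a median of 0.64, whereas replicate 2 has a median of −0.065.

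In complex I, the core subunits carry flavin or iron–sulfur clusters and none of those named here passed the test. NDUFV1 (NCBI gene 4723), which binds NADH and the flavin, had 148, 148 and 130.3 CPM in Control replicates 1 to 3 and 278, 119 and 149.6 CPM in RC48 replicates 1 to 3. Replicate 1 stood alone at well above the others, and the log2 fold change of 0.36 (95% interval −0.31 to 1.03, adjusted p = 0.44 in edgeR) was −0.089 without it. NDUFS1 (NCBI gene 4719), the large subunit with several iron–sulfur clusters, had 139, 135 and 147 CPM in Control replicates 1 to 3 and 125, 135 and 123 CPM in RC48 replicates 1 to 3. The groups met at the lower end of Control, with a log2 fold change of −0.13 (95% interval −0.39 to 0.12, adjusted p = 0.444 in edgeR).
NDUFS7 (NCBI gene 374291), which holds the last cluster before the quinone, had 40.2, 43.7 and 32.7 CPM in Control replicates 1 to 3 and 82, 35.8 and 47.9 CPM in RC48 replicates 1 to 3. Replicates 1 and 3 lay above every Control library, and replicate 2 lay among them. The log2 fold change was 0.51 (95% interval −0.17 to 1.18, adjusted p = 0.324 in edgeR) and was 0.10 without replicate 1.

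The genes counted with complex I held both ends of the range, an accessory subunit at the lower and a readthrough transcript at the upper end. NDUFA5 (NCBI gene 4698), a subunit of the matrix arm, had the lowest log2 fold change of all members, with 62.3, 63 and 49.6 CPM in Control replicates 1 to 3 and 12.1, 57.5 and 33.8 CPM in RC48 replicates 1 to 3. Replicates 1 and 3 lay below every Control library and replicate 2 among them. The mean was 58.3 ± 7.56 CPM in the Control and 34.4 ± 22.7 CPM in the RC48 libraries (SD, n = 3 per group), and the log2 fold change was −0.76 (95% interval −1.83 to 0.31, adjusted p = 0.34 in edgeR). NDUFC2-KCTD14 (NCBI gene 100532726) had the highest, 0.74 (95% interval −0.28 to 1.75, adjusted p = 0.331 in edgeR), at only 1.97, 0.521 and 0.942 CPM in Control replicates 1 to 3 and 2.43, 1.71 and 1.61 CPM in RC48 replicates 1 to 3. This readthrough transcript shares sequence with NDUFC2, whose log2 fold change was −0.27, and the estimated counts of both were not whole in every library, so the division of reads between them is uncertain. Over the 38 genes of complex I, 26 lay above and 11 below every Control library in RC48 replicate 1. The complex thus lay on both sides of Control within that library, and the same count was not made over all genes.

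Complex II had the only negative median. SDHA (NCBI gene 6389), the flavoprotein that oxidizes succinate, had 319, 312 and 302 CPM in Control replicates 1 to 3 and 540.3, 284 and 347 CPM in RC48 replicates 1 to 3, and its log2 fold change of 0.33 (95% interval −0.19 to 0.85, adjusted p = 0.374 in edgeR) became 0.015 without replicate 1. SDHB (NCBI gene 6390), the iron–sulfur subunit, had 77.5, 84.1 and 76.2 CPM in Control replicates 1 to 3 and 65.3, 69.8 and 77.1 CPM in RC48 replicates 1 to 3, a log2 fold change of −0.16 (95% interval −0.45 to 0.12, adjusted p = 0.406 in edgeR). SDHD (NCBI gene 6392), a membrane anchor, had 133, 137 and 130.2 CPM in Control replicates 1 to 3 and 101, 126 and 102 CPM in RC48 replicates 1 to 3. Every RC48 library lay below every Control library for SDHD, with a log2 fold change of −0.29 (95% interval −0.58 to 0.012, adjusted p = 0.269 in edgeR). The membrane anchor SDHC had a log2 fold change of −0.053. In RC48 replicate 1, SDHA was thus higher than in any Control library, while the other subunits of the same complex were lower.

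In complex III, CYC1 (NCBI gene 1537), the cytochrome c1 heme protein, had 169, 169 and 137 CPM in Control replicates 1 to 3 and 227, 127 and 149 CPM in RC48 replicates 1 to 3. Its log2 fold change of 0.081 (95% interval −0.43 to 0.59, adjusted p = 0.816 in edgeR) was −0.27 after correction for GC content (adjusted p = 0.144) and −0.34 after correction for GC content and length together (adjusted p = 0.0227, beside 4.44% of all genes called lower), so the direction turned and CYC1 was called lower in that 1 fit. Its adjusted p in all alternatives ran from 0.0227 to 0.975. UQCRFS1 (NCBI gene 7386), the Rieske iron–sulfur protein, had 259.7, 263 and 242 CPM in Control replicates 1 to 3 and 201, 238 and 234 CPM in RC48 replicates 1 to 3. All RC48 libraries were below all Control libraries, by a log2 fold change of −0.19 (95% interval −0.46 to 0.084, adjusted p = 0.349 in edgeR). UQCRC1 (NCBI gene 7384), a core protein on the matrix side, had 205, 203 and 183 CPM in Control replicates 1 to 3 and 359, 186 and 232 CPM in RC48 replicates 1 to 3, a log2 fold change of 0.39 (95% interval −0.14 to 0.93, adjusted p = 0.325 in edgeR) that was the highest of the complex. The lowest was that of UQCRB (NCBI gene 7381), a subunit near the quinone site, with 147, 150.2 and 128 CPM in Control replicates 1 to 3 and 98.1, 129.6 and 146 CPM in RC48 replicates 1 to 3 and a log2 fold change of −0.19 (95% interval −0.57 to 0.19, adjusted p = 0.468 in edgeR), which was 0.20 after the GC correction.

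In complex IV, COX4I1 (NCBI gene 1327), the common isoform of subunit 4, had 341, 349.9 and 293 CPM in Control replicates 1 to 3 and 683, 331 and 419 CPM in RC48 replicates 1 to 3. Replicates 1 and 3 lay above every Control library and replicate 2 among them, and the log2 fold change was 0.54 (95% interval −0.04 to 1.13, adjusted p = 0.274 in edgeR). COX5A (NCBI gene 9377) had 126, 121 and 105 CPM in Control replicates 1 to 3 and 155, 109 and 123 CPM in RC48 replicates 1 to 3, a log2 fold change of 0.14 (95% interval −0.23 to 0.51, adjusted p = 0.57 in edgeR). COX5B (NCBI gene 1329), which binds zinc on the matrix side, had 108, 110.3 and 85.4 CPM in Control replicates 1 to 3 and 60.9, 94.7 and 102 CPM in RC48 replicates 1 to 3, a log2 fold change of −0.24 (95% interval −0.72 to 0.25, adjusted p = 0.474 in edgeR). RC48 replicate 1 was the highest library for COX5A and the lowest for COX5B. COX7A2L (NCBI gene 9167) had 53.9, 50.2 and 50.3 CPM in Control replicates 1 to 3 and 36.1, 47.4 and 45.1 CPM in RC48 replicates 1 to 3. All of its RC48 libraries were below all Control libraries, and the log2 fold change of −0.26 (95% interval −0.59 to 0.066, adjusted p = 0.306 in edgeR) was the lowest of those counted with complex IV.

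**Figure D3:**
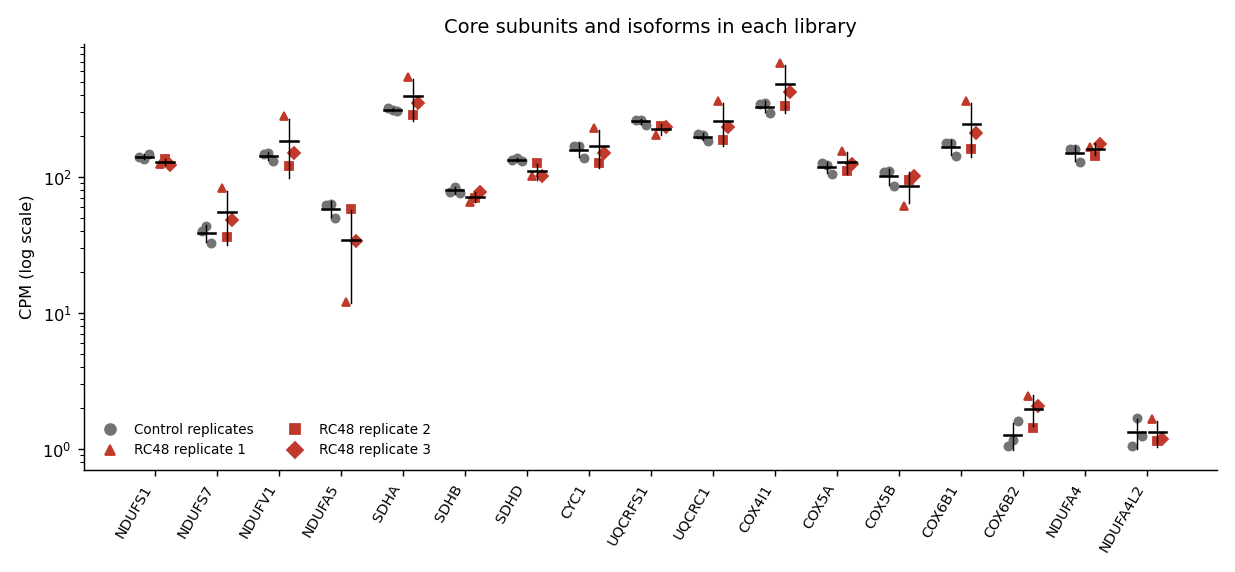
CPM on a log scale (y axis) of core subunits and isoforms (x axis) in each library, with bars for the mean and lines for 1 SD of the 3 replicates. COX4I1 reaches 683 CPM in RC48 replicate 1 and 331 in replicate 2, while NDUFA5 is at 12.1 in replicate 1.

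Several subunits of complex IV exist as a common and a tissue-restricted isoform, and SW780 expressed the common ones. Levels of different genes are compared here in TPM, which scales to library size and divides by the effective length of the transcript, and for short transcripts that length is small and uncertain. In Control, COX6B1 was at 1652 ± 101 TPM and COX6B2, known from testis, at 1.64 ± 0.505 TPM (SD, n = 3 each). COX6A1 was at 1723 ± 44.7 TPM, COX8A at 1355 ± 24.2 TPM, COX4I1 at 1286 ± 45.8 TPM and COX7A2 at 594 ± 18.2 TPM (SD, n = 3 each). Their partners COX6A2, COX8C, COX4I2 and COX7A1 were not among the genes with values used here. NDUFA4 was at 152 ± 11.8 TPM and NDUFA4L2, a paralog known to respond to hypoxia, at 2.66 ± 0.615 TPM (SD, n = 3 each). In this order COX6A1 and COX6B1 lay within their SD of each other, as did COX8A and COX4I1 when both SDs were added, whereas COX7A2 was well below.

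None of the isoforms passed the test between RC48 and Control. COX6B2 (NCBI gene 125965) had 1.04, 1.16 and 1.59 CPM in Control replicates 1 to 3 and 2.43, 1.43 and 2.06 CPM in RC48 replicates 1 to 3, the highest log2 fold change of complex IV, 0.64 (95% interval −0.024 to 1.30, adjusted p = 0.269 in edgeR). COX6B1 (NCBI gene 1340) had 177, 177 and 141 CPM in Control replicates 1 to 3 and 362, 160.2 and 210.5 CPM in RC48 replicates 1 to 3, with 0.56 (95% interval −0.091 to 1.22, adjusted p = 0.292 in edgeR). NDUFA4L2 (NCBI gene 56901) had 1.04, 1.68 and 1.24 CPM in Control replicates 1 to 3 and 1.64, 1.14 and 1.17 CPM in RC48 replicates 1 to 3, a log2 fold change of −0.0066 (95% interval −0.66 to 0.64, adjusted p = 0.987 in edgeR), and its groups overlapped. NDUFA4 had a log2 fold change of 0.10 (95% interval −0.23 to 0.43, adjusted p = 0.656 in edgeR), with 161, 161 and 128 CPM in Control replicates 1 to 3 and 164, 143 and 174 CPM in RC48 replicates 1 to 3. The log2 fold changes of COX6A1, COX8A and COX7A2 were 0.40, 0.48 and 0.18, with adjusted p-values of 0.299, 0.354 and 0.464 in edgeR.

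The sum over all members was between 2.21% and 2.33% of the TPM of a Control library and 2.45%, 2.06% and 2.32% in RC48 replicates 1, 2 and 3. On this scale the RC48 libraries lay above, below and within the Control range. As a share of the counts, the members took 0.599% to 0.685% in Control and 0.817%, 0.606% and 0.692% in RC48 replicates 1, 2 and 3, so that none of the RC48 libraries lay below Control. In TPM, complex IV took 0.865% to 0.918% in Control and 1.03%, 0.814% and 0.937% in the RC48 libraries, and complex II 0.0744% to 0.0789% against 0.0706%, 0.0726% and 0.069%. For complex II all RC48 libraries were below all Control libraries in TPM but not in counts, where the share was 0.0698% to 0.0719% in Control and 0.0787%, 0.0666% and 0.0701% in RC48 replicates 1, 2 and 3. TPM of RC48 replicate 2 was computed from its counts.

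Where a member lay in RC48 replicate 1 went along with the GC content of its transcripts. The members' GC content had a median of 50.7% and ran from 34.4% in NDUFA5 to 66.8% in NDUFS7, beside a median of 50% over all genes tested. Their transcripts were short, with a median of 702 bases beside 1864. Over the 66 members, Spearman's rho of the log2 ratio with GC content was 0.621 in RC48 replicate 1, −0.047 in replicate 2 and 0.573 in replicate 3. With the effective length implied by counts and TPM, a different measure from the length in bases above, it was −0.34, 0.13 and −0.42. These describe genes that share libraries, so no p-value is given.

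The members at both ends of the GC range of whole transcripts also differed at the start of their coding sequences. Below are the first 150 coding bases from GENCODE release 29, 5′ to 3′, with G and C in capitals. NDUFA5 lies on GRCh38 chr7:123541029-123558255 (minus strand) and NDUFS7 on chr19:1383631-1395589 (plus strand), as the extent of the transcript. G and C make up 43.3% of the bases shown for NDUFA5 and 68.7% for NDUFS7. Over this stretch they were not the extremes, with COX7B2 at 41.3% and UQCRFS1 at 73.3%.
NDUFA5: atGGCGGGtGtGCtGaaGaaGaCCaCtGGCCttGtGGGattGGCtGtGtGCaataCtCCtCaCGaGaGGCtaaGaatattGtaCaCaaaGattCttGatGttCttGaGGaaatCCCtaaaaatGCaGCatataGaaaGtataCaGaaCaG
NDUFS7: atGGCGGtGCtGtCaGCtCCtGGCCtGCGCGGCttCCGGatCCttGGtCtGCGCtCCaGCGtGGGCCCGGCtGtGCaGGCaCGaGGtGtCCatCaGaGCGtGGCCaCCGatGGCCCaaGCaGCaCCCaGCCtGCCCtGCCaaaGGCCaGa
In RC48 replicate 1, the log2 ratio to the Control mean was −2.25 for NDUFA5 and 1.09 for NDUFS7. In replicate 2 it was −0.012 and −0.11. Both genes therefore lay far from Control in replicate 1 and near it in replicate 2. In replicate 3, NDUFA5 was at −0.78, and NDUFS7 lay above every Control library.

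**Figure D4:**
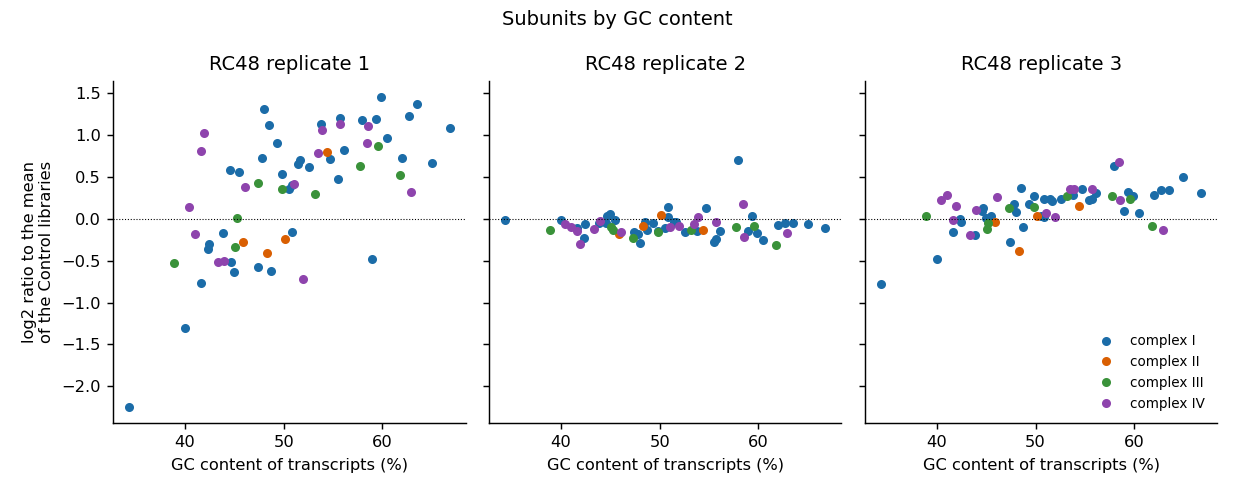
Log2 ratio of each tested subunit to the mean of the Control libraries (y axis) against the GC content of its transcripts in percent (x axis), in 1 panel for each RC48 replicate, with colours for the complexes. The points climb with GC content in replicates 1 and 3 (Spearman's rho 0.621 and 0.573) and lie flat in replicate 2.

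In groups of 22 members ranked by GC content, the median log2 ratio in RC48 replicate 1 was −0.29 where GC content was lowest, 0.47 in the middle and 0.89 where it was highest. For all tested genes in the same ranges of GC content it was −0.60, 0.094 and 0.57. The members followed the slope of the other genes and lay above them in each group. In replicate 2, the members' medians were −0.10, −0.091 and −0.10, and those of all genes 0.017, 0.0099 and 0.0062. After correction for GC content, the median log2 fold change of the 3 groups was 0.069, 0.13 and 0.13, in place of −0.13, 0.24 and 0.40. It was 0.12 over all members with the GC correction and −0.013 with the corrections for GC content and length together, a pair chosen after the data were seen.

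Which calls are made rests on RC48 replicate 2. Without it, edgeR called 14 members higher and 3 lower, beside 14.1% and 14.1% of all genes in each direction, so that 25.8% of the members and 28.3% of all genes were called. The members called higher were NDUFA3, NDUFS8, NDUFA11, NDUFB10, COX6B1, NDUFS5, NDUFA1, COX4I1, NDUFS7, COX8A, COX6A1, UQCRC1, NDUFB7 and NDUFB8, with log2 fold changes from 0.53 to 0.98 and adjusted p-values from 0.0288 to 0.0469. Those called lower were NDUFA5, NDUFB5 and SDHD, with log2 fold changes of −1.34, −0.85 and −0.40 and adjusted p-values of 0.0341, 0.0398 and 0.0414 in edgeR. On log2(TPM+1) of the same 5 libraries, limma called 0 members higher and 4 lower, beside 6.21% and 15.4% of all genes. NDUFA5, NDUFB5 and SDHD were called lower by both, and NDUFAB1, the mitochondrial acyl carrier protein, by limma alone. COX4I1 had a log2 fold change of 0.75 in the counts (adjusted p = 0.0329 in edgeR) and of 0.42 in TPM (adjusted p = 0.062 in limma).

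**Figure D5:**
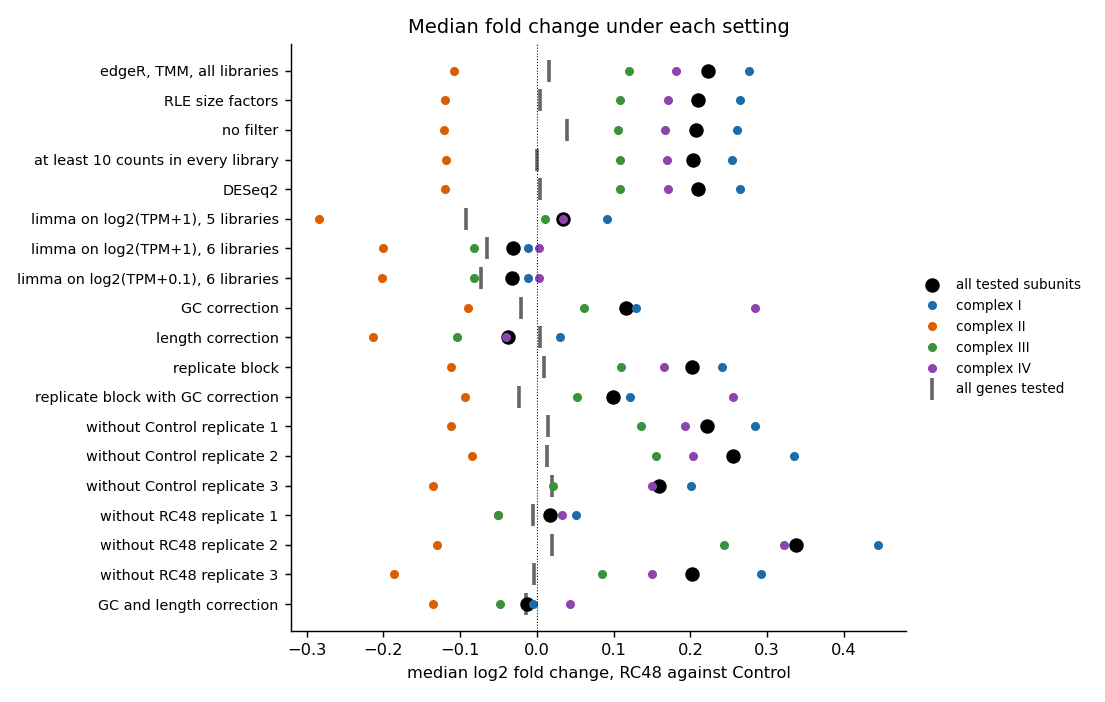
Median log2 fold change of RC48 against Control (x axis) under each processing setting (y axis), for all tested subunits (large points), each complex (small points) and all genes tested (ticks). The median over all subunits runs from −0.037 with the length correction to 0.34 without RC48 replicate 2.

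Other genes of mitochondrial respiration showed a single call. Of the nuclear subunits of complex V, 18 of 18 were tested, 0 were called higher and 0 lower, and the median log2 fold change was 0.11. For 48 assembly factors of complexes I to IV, the calls were 0 and 0 with a median of −0.073, and for 14 enzymes of the TCA cycle 0 and 0 with a median of −0.059. Cytochrome c (CYCS) and the dehydrogenases that feed ubiquinone gave 0 and 0 among 6 genes, with a median of −0.22. CYCS was 226 ± 15.6 CPM in the Control and 153 ± 38.9 CPM in the RC48 libraries (SD, n = 3 per group), a log2 fold change of −0.56 (adjusted p = 0.199 in edgeR). With the GC correction, under which 3.22% of all genes were called lower, CYCS was called lower, as were GPD2, which feeds ubiquinone, CS (citrate synthase), the assembly factor LRPPRC and the coactivator PPRC1.
Of 12 regulators of mitochondrial biogenesis, 11 were tested, 0 were called higher and 1 lower, with a median of −0.29. PPARGC1B, a coactivator of nuclear receptors that act on mitochondrial genes, had 20.7, 19.7 and 25.3 CPM in Control replicates 1 to 3 and 11, 13.8 and 11.1 CPM in RC48 replicates 1 to 3. Every RC48 library lay below every Control library, with a log2 fold change of −0.87 (adjusted p = 0.0438 in edgeR, standard error 0.167). It was also called lower with the GC correction, at −1.14, but not on log2(TPM+1) of 6 libraries, nor when RC48 replicate 3 or a Control library was left out.

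The promoters of the members were searched for motifs of NRF1, GABPA and YY1, factors known to act on respiratory genes. The windows ran from 250 bases before to 50 bases after the annotated start (RefSeq, GRCh38.p14) and were found for 57 of 67 members. For some, such as NDUFA5 and COX7A2, the window lay away from the start of the GENCODE transcript used for the coding sequence. A missing match there covers only the start that was searched. The core motif of NRF1, searched as an exact word with 1 free base, was present on either strand in 12 of 57 (21.1%), beside 9.9% of 13132 promoters of genes listed in the libraries and 6.28% of all 27305 promoters. The ETS motif bound by GABPA, CCGGAAGT, was present in 8 (14%, beside 7.29% and 4.44%), and the YY1 motif, AANATGGCG, in 15 (26.3%, beside 5.66% and 3.37%). At least 1 of them was present in 28 (49.1%), beside 20.4% for listed genes and 12.7% overall. A match describes the letters of the window and is not a binding site. In members such as UQCRC1, SDHB and NDUFS3, the YY1 match lay after the annotated start and took in the ATG that opens the coding sequence. The YY1 share therefore describes coding starts as well as promoters, and the matches of other genes were not sorted in this way. By complex, the NRF1 core was found in 6 of 33 promoters of complex I, 2 of 3 of complex II, 4 of 7 of complex III and 0 of 14 of complex IV. The ETS motif was found in 2 of 33 in complex I, 1 of 3 in complex II, 3 of 7 in complex III and 2 of 14 in complex IV, and the YY1 motif in 10 of 33 in complex I, 1 of 3 in complex II, 3 of 7 in complex III and 1 of 14 in complex IV.

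To show where the matches lie, the windows of 3 subunits that hold an NRF1 match follow, 5′ to 3′, with every base of a match in capitals, for SDHD (chr11:112086623-112086922, plus strand), UQCRFS1 (chr19:29213102-29213401, minus strand) and UQCRC1 (chr3:48609597-48609896, minus strand). SDHD holds 1 NRF1 and 1 ETS match, and UQCRFS1 and UQCRC1 each hold 1 NRF1 and 1 YY1 match.
SDHD: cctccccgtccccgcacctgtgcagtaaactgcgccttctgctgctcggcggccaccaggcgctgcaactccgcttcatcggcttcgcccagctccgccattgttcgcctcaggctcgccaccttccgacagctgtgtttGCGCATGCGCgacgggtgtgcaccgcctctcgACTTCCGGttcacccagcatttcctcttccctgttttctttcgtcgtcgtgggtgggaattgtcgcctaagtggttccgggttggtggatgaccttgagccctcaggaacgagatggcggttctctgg
UQCRFS1: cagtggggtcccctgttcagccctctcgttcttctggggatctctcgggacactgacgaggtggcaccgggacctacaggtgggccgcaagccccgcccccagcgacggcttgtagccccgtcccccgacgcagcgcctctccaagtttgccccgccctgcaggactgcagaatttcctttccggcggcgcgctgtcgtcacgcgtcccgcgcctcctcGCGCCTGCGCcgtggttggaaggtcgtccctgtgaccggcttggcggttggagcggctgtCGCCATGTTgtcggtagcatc
UQCRC1: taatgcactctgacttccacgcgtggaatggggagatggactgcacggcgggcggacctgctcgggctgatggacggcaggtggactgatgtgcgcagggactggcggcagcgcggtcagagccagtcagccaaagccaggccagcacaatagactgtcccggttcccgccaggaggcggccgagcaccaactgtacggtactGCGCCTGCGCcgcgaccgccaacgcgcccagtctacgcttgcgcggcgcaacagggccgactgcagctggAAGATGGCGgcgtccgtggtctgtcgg
The log2 fold changes of SDHD, UQCRFS1 and UQCRC1 were −0.29, −0.19 and 0.39, none of which passed the test. NRF1 itself was 26.3 ± 1.52 CPM in the Control and 31.2 ± 5.57 CPM in the RC48 libraries (SD, n = 3 per group), with a log2 fold change of 0.25 (adjusted p = 0.358 in edgeR).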

How the data were processed

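RNA from 3 Control and 3 RC48 libraries of SW780 was sequenced at BGI. Reads were filtered with SOAPnuke, mapped with Bowtie2 to a reference gene sequence and counted with RSEM. The processing notes name hg38, and the annotation and tool versions are not given in the sources used here. The authors deposited estimated counts per gene, without normalization, of which 11.7% to 15% per library were not whole numbers. TPM, which the authors deposited for 5 libraries, are scaled for length and depth. For RC48 replicate 2, TPM was computed here from its counts and the effective lengths that the other libraries imply (from genes with at least 20 counts and 1 TPM). Doing this for RC48 replicate 3 differed from its deposited TPM by a median absolute log2 difference of 0.00274 over 12037 genes.

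Estimated counts were rounded, filtered with filterByExpr, scaled by TMM and tested without covariates (edgeR, quasi-likelihood) with p-values adjusted over all genes by Benjamini-Hochberg (threshold 0.05, R 4.3.3, edgeR 4.0.16). CPM are TMM-scaled, and log2 ratios of single libraries use log2 CPM. The study's own method, limma on log2(TPM+1), was an alternative, since 1 library had no TPM table here (limma 3.58.1, DESeq2 1.42.0). Corrections entered as offsets a loess trend (span 0.3) of log2 CPM on GC content or implied length, fitted per library. GC content came from GENCODE release 29 transcripts for 99% of genes. The procedure was tested on simulated data. Python 3.11.15, numpy 2.4.6, pandas 2.3.3, scipy 1.17.1 and matplotlib 3.10.9 were used.

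The members, lists and tests were chosen with earlier results of these data known. Given in full are called members, the highest and lowest log2 fold change of each complex, fixed core subunits and isoform pairs, and up to 3 called genes of each other list. Other genes, such as NDUFB8 and CYCS, were named after their values were seen. Of the genes of the lists, KRT6B, COL1A2, the mitochondrially encoded genes and some others were not analysed here. A subunit that the rule names is not reported here by name and is not in the plots that name genes. Library totals limit the precision of low counts, and intervals on fold changes cover the spread between these libraries only.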

Additional observations from a re-analysis of the deposited data

How the results depend on the processing

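The number of subunits called was 0 in each direction in every one of 18 alternatives except 3. These were the fit without RC48 replicate 2 (14 higher, 3 lower), limma on log2(TPM+1) of 5 libraries (4 lower), which leaves out the same library, and the GC and length corrections together (1 lower, CYC1). With 1 library left out, the number called higher ran from 0 to 14 and lower from 0 to 3. With single libraries left out, the median over members lay between 0.017 and 0.34 (log2), and between −0.037 and 0.21 in the other alternatives. For complex II it moved to −0.28 in limma on 5 libraries. Of 413 log2 fold changes of 23 named genes, 32 changed sign. In limma on log2(TPM+1) of 5 libraries, these were COX7A2 −0.082. On log2(TPM+1) of 6 libraries, these were COX7A2 −0.13 and CYC1 −0.082. On log2(TPM+0.1), these were COX7A2 −0.13 and CYC1 −0.082. With the GC correction, these were CYC1 −0.27, NDUFS1 0.049, NDUFV1 −0.0093 and UQCRB 0.20. With the length correction, these were COX5A −0.041, COX7A2 −0.16 and CYC1 −0.10. With the replicate block and the GC correction, these were CYC1 −0.27, NDUFS1 0.041, NDUFV1 −0.036 and UQCRB 0.18. With the GC and length corrections together, these were COX5A −0.032, COX6A1 −0.013, COX8A −0.13, CYC1 −0.34, NDUFS1 0.079, NDUFS7 −0.013, NDUFV1 −0.056 and UQCRB 0.25. Ranges with 1 library left out that crossed 0 were NDUFA4L2 −0.20 to 0.20, CYC1 −0.20 to 0.24, NDUFA4 −0.0062 to 0.17, COX5A −0.019 to 0.25 and NDUFV1 −0.089 to 0.59. The causes were not tested.

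The other lists hold 14 TCA cycle genes, 48 assembly factors, 18 complex V genes and 12 regulators. For them, limma on 5 libraries called 1 TCA cycle gene higher and 2 lower, and 1 assembly factor higher and 12 lower. It also called 1 complex V gene and 5 regulators lower. Over all genes, this fit called 6.21% higher and 15.4% lower. The GC correction called 1 TCA cycle gene, 1 assembly factor and 2 regulators lower, beside 3.22% of all genes. With the length correction as well, these were 2 TCA cycle genes, 1 complex V gene and 2 regulators, beside 4.44% of all genes. DESeq2 called 1 assembly factor higher, beside 4.11% of all genes. On TPM of 6 libraries, with either pseudocount, 0 regulators were called. With 1 library left out, calls ran from 0 to 3 assembly factors higher and 0 to 10 lower, 0 to 1 TCA cycle gene higher and 0 to 1 lower, and 0 to 1 regulator higher and 0 to 4 lower. Over all genes, the fit without RC48 replicate 2 called the most of these, 14.1% higher and 14.1% lower.

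Over all genes tested, 288 were called, 744 in DESeq2, 2854 in limma on 5 libraries, 967 with the GC correction, 1286 with both corrections, and between 68 and 3726 with 1 library left out. Libraries of the same number did not deviate together (r = 0.00204, −0.13 and 0.00478 for replicates 1, 2 and 3). With 3 libraries per group, this cannot settle whether the numbers mark pairs. The replicate block called 0 subunits and 331 of all genes, with the GC correction 0 and 698, and not every library correlated best with its own number. For low counts such as those of UQCRHL, COX6B2 and NDUFC2-KCTD14, depth limits what could be seen.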
